A study of Mus musculus with 15 samples.

Results

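The transcripts described here were those of 46 mitosis genes, which encode proteins that a cell makes as it prepares to divide and that work during chromosome condensation, spindle assembly, chromosome separation and cytokinesis. The 46 genes were taken by name from a list of mitosis regulators, with earlier results of these data known. All 46 were found among the 46078 genes of the deposited count table, and all 46 passed the filter on low counts in every comparison. They were measured by RNA-seq in podocyte fractions, obtained from a kidney cortex digest of male C57BL/6J mice by magnetic sorting with antibodies to nephrin, a podocyte surface protein. Young mice were 4 months old and received no injection (5 libraries). Aged mice were 21 months old and received either RMP1-14, a rat antibody that blocks mouse PD-1 and is called aPD1ab here (4 libraries), or 2A3, a rat IgG2a isotype control (4 libraries). Both antibodies were injected intraperitoneally at 12 mg/kg once a week for 8 weeks, while the titles of the aPD1ab samples give 47 days. The young group thus differed from the aged IgG2a group in age and in injection, and the 2 cannot be told apart here. Table columns were assigned to these groups by numbers printed in the study's principal component plot, not by sample labels. A further 2 table columns were not tied to a group and were not analysed here.

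Podocytes are long-lived epithelial cells that rarely divide in the adult, and mitosis genes are mostly silent in resting cells. Their transcription is shut off in resting cells by the DREAM complex, which contains the pocket protein p130 or p107, E2F4 and the MuvB core, and is switched on late in the cell cycle by B-MYB and FOXM1. DREAM and its activating relatives meet many of these promoters at a short element called CHR (cell cycle genes homology region), next to CCAAT boxes that bind NF-Y. A sorted fraction also carries RNA from other kidney and blood cells, so fewer dividing cells and less mitosis RNA per dividing cell cannot be told apart in these bulk libraries.

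Library totals ran from 19912969 to 32717100 counts. Levels in single libraries are given as CPM, counts scaled to a common library size, after correction by the trimmed mean of M values (TMM), a method that sets the bulk of genes equal between libraries. A count of 3 in 1 library corresponded to 0.09 to 0.15 CPM before that correction. The first aged IgG2a library stood apart from the other 3 on the first principal component of all genes, at -16.4 against 71.6 to 84.2. It lay within the aged aPD1ab range of -64.9 to 10.9, and young libraries lay at -41.4 to -24.6. Each comparison with the aged IgG2a group is therefore given with and without this library. Leaving it out removes the aged IgG2a library nearest to the aged aPD1ab group on that component. Aged aPD1ab replicate 2, at -64.9, also lay apart from the rest of its group, at -13.9 to 10.9. Replicates are numbered in the order of the table's columns. The study's text says that fractions were sequenced from each individual mouse, so the spread between libraries is that between mice. All 10 podocyte markers were detected in every library, with a summed level of 1028 to 1597 CPM in young, 587 to 768 in aged IgG2a and 344 to 950 in aged aPD1ab libraries. Proximal tubule and macrophage markers were more abundant than podocyte markers in every library.

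Levels of the mitosis genes were low. To compare genes with each other, counts were divided by exon length and expressed as TPM, a share of all transcripts in the library, averaged over the 13 libraries. The median of the 46 genes was 1.69 TPM, against 7.86 TPM over the 15953 genes tested between aged IgG2a and young libraries. Of the 46, 11 lay under 1 TPM, 23 between 1 and 3 TPM and 12 at 3 TPM or more. The highest was Cks2, a small adaptor subunit of cyclin-dependent kinases, at 34.3 TPM. Smc4, an ATPase of the condensin ring, followed at 11.9 TPM, then Incenp at 6.05, Spc25 at 5.90, Mki67 at 5.11 and Ncapd2 at 5.04 TPM. Cyclin B1 (Ccnb1), the partner that activates CDK1 at mitotic entry, was at 0.879 TPM. The lowest was Ttk, the checkpoint kinase also known as MPS1, at 0.322 TPM, with as few as 4 reads in a library. The 46 genes together drew 3089 to 11761 reads per library, and the highest count of a single gene was 1516 reads for Mki67.

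The promoters show a feature that the choice of genes did not use. RefSeq promoter windows (GRCm38.p6, from 250 bases before to 50 after the start) were matched for 38 of the 46 genes. The CHR element was searched as TTTGAA or TTCGAA and the CCAAT box as CCAAT, each on both strands. A CHR element was present in 29 of the 38 windows (76.3%), against 19.4% of 27025 windows, 1 for each gene with an entry. A CCAAT box was also present in 29 (76.3%), against 37.9%. Both stood in 26 windows (68.4%), against 7.70%, and at least 2 CCAAT boxes in 20 (52.6%), against 12.2%. The window of Top2a held 4 CHR matches and 6 CCAAT boxes. Examples are shown for 4 genes whose fitted values shared the sign of most of the 46 in every comparison given later (Top2a, Mki67, Kif11 and Smc2) and for Cks2 and Spc25, each called against the majority's direction in 1 comparison, with 150 bases before the start, 5′ to 3′ on the gene's strand, with CHR and CCAAT matches in capitals.
Top2a, chr11:99024190-99024339, minus strand: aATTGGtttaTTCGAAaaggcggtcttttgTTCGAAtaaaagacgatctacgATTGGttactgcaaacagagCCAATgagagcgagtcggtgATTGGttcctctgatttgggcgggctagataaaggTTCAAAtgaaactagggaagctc
Mki67, chr7:135716380-135716529, minus strand: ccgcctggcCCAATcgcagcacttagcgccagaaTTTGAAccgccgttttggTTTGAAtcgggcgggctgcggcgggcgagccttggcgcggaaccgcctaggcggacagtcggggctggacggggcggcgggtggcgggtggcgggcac
Kif11, chr19:37376232-37376381, plus strand: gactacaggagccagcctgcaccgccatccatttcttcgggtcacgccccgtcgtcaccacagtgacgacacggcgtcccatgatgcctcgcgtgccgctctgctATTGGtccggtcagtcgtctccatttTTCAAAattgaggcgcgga
Smc2, chr4:52439071-52439220, plus strand: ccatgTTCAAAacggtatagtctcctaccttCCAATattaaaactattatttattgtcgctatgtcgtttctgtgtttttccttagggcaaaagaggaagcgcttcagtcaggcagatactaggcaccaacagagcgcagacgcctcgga
Cks2, chr13:51645082-51645231, plus strand: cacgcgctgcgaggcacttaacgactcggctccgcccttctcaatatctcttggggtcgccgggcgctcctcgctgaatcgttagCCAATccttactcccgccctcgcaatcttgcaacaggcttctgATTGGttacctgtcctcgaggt
Spc25, chr2:69206214-69206363, minus strand: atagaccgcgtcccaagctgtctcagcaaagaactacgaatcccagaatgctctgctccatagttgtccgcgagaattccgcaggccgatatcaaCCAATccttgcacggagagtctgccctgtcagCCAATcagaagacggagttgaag
The printed stretches carry no annotated exon base. The window of Cks2 held 4 CCAAT boxes and no CHR match, as 9 of the 38 windows had none, among them those of Ccnb1, Birc5 and Nusap1. Spc25 had 1 CHR match, which lay 25 bases past the start and outside the printed stretch, and 2 CCAAT boxes.

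Across libraries the 46 genes moved largely as a block. Their summed level was 226, 322, 193, 202 and 249 CPM in the young libraries, 164, 481, 340 and 338 CPM in the aged IgG2a libraries and 175, 176, 175 and 232 CPM in the aged aPD1ab libraries. Aged IgG2a replicate 1 had the lowest sum of the 13 libraries and replicate 2 the highest. Replicate 2 held the highest level of the 13 libraries for 37 of the 46 genes, and replicate 1 was the lowest of its group for 40. In the young group replicate 2 was the highest for 39 genes, and in the aged aPD1ab group replicate 4 was the highest for 27. Spread within a group was therefore shared between genes, and the 46 genes are not independent of each other.

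**Figure D1:**
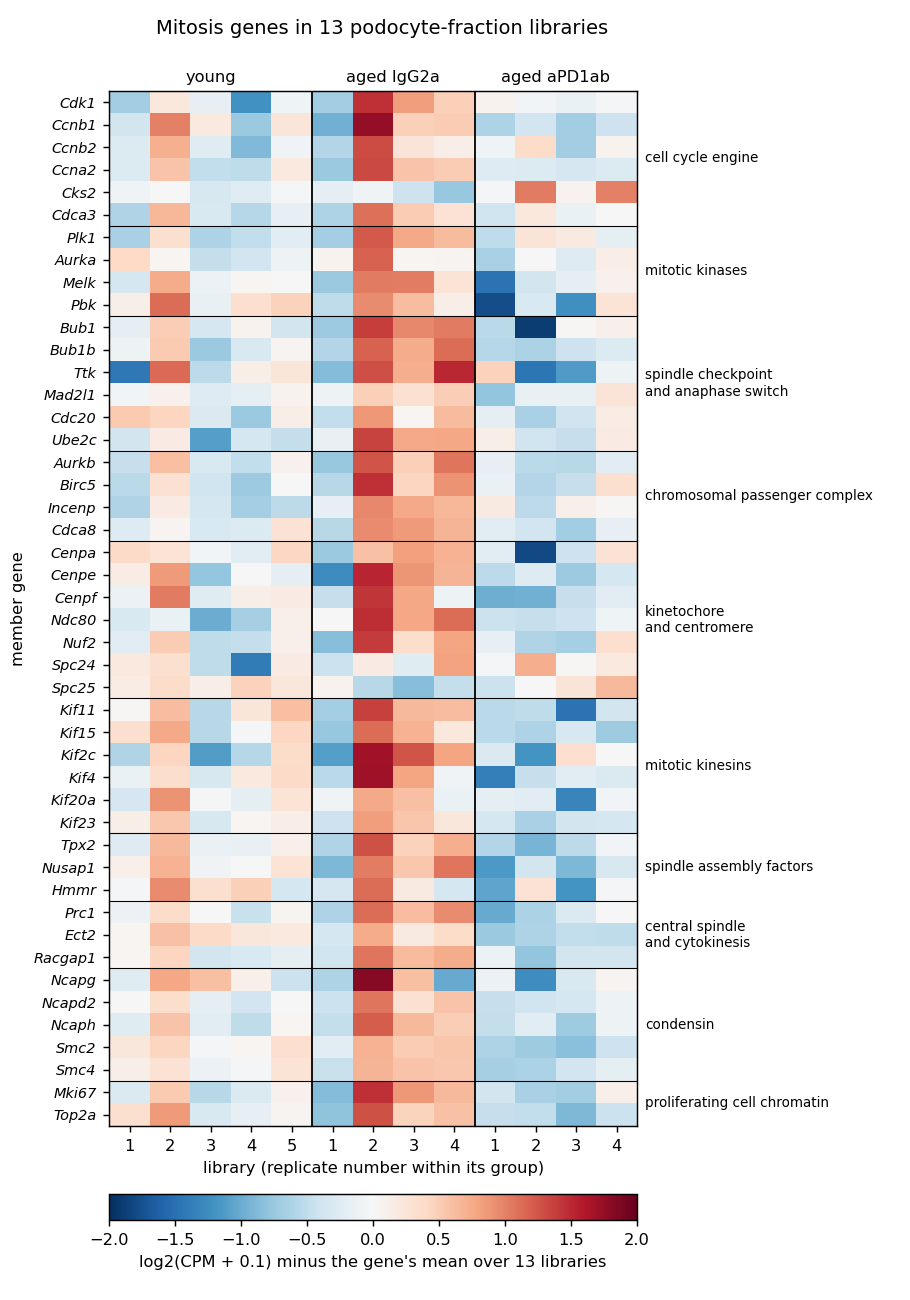
Each cell shows log2(CPM + 0.1) of 1 of the 46 mitosis genes (rows, grouped by role) in 1 of 13 libraries (columns) minus that gene's mean over the libraries, with red above and blue below the mean. Aged IgG2a replicates 2 to 4 are red for most genes, aged IgG2a replicate 1 and the 4 aged aPD1ab libraries are blue for most, and Cks2 and Spc25 depart from this pattern.

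The first comparison asked how the genes differed between aged mice given the control antibody and young mice. With all libraries, 44 of the 46 genes had a log2 fold change above 0 (aged IgG2a over young), with a median of 0.60, beside a median of 0.04 and 53.7% above 0 over all 15953 genes tested. Ndc80, Incenp and Ube2c were called higher and Spc25 lower at an adjusted p under 0.05 (edgeR quasi-likelihood F-test, p adjusted over all genes after Benjamini and Hochberg). These 3 of 46 called higher stand beside a background of 9.05% of all genes, and the 1 called lower beside 8.38%. Without aged IgG2a replicate 1, the median was 0.84 and 27 genes were called higher, beside 22.1% of all genes. Spc25 was again the 1 gene called lower, beside 23.5%. Without aged IgG2a replicate 2, the library with the highest levels, the median was 0.29 and none of the 46 was called. None was called either without aged IgG2a replicate 3 or 4 or without young replicate 1, 3 or 4. Those fits called 260 to 485 of all genes higher and 293 to 673 lower, beside 1443 and 1337 with all libraries. Scaling by library totals alone moved the median of all genes to -0.38 and that of the mitosis genes to 0.16. With that scaling 29 of the 46 were above 0 and none was called higher, beside 331 of the 15953 genes. Among the aged IgG2a libraries the macrophage marker sum had the same order as the sum of the 46 genes. It was 1944 to 3636 CPM in young libraries, 3074 CPM in aged IgG2a replicate 1 and 7515 to 9368 CPM in replicates 2 to 4. Among the aged aPD1ab libraries the order differed: replicate 4, highest for the 46 genes at 232 CPM, had a macrophage sum of 3655 CPM, below the 5255 CPM of replicate 3. With all libraries 9 of 10 macrophage markers were called higher and 10 of 10 proximal tubule and 8 of 10 podocyte markers lower, with proximal tubule sums of 6881 to 10881 CPM in young and 940 to 4902 CPM in aged IgG2a libraries. Of T cell markers 2 of 8 (7 without replicate 1) and of plasma cell markers 4 of 5 were called higher; T cell sums were 5.54 to 13.9 CPM in young and 8.97 to 38.8 CPM in aged IgG2a libraries. The part of these cells in the result was not tested.

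Among the cell cycle engine genes, Cdk1, the kinase that drives entry into mitosis, was measured at 1.82, 3.48, 2.66, 1.24 and 2.80 CPM in the young and 1.82, 8.38, 5.39 and 4.22 CPM in the aged IgG2a libraries. Replicate 1 lay within the young range and the other 3 above it. Its log2 fold change was 1.11 ± 0.43 (SE, adjusted p = 0.0949), and 1.38 ± 0.33 (adjusted p = 0.00622) without replicate 1. Ccnb1 stood at 1.16, 3.15, 1.75, 0.873 and 1.83 CPM in young and 0.733, 5.40, 2.15 and 2.21 CPM in aged IgG2a libraries, so the 2 groups overlapped with or without replicate 1. Its companion Ccnb2 (cyclin B2) overlapped as well, at 1.38 to 4.37 CPM against 1.73 to 6.67 CPM. Neither cyclin passed the test in either fit, with log2 fold changes of 0.65 ± 0.54 and 0.59 ± 0.43 over all libraries. Cks2 did not share the direction: its levels of 8.06 to 10.1 CPM in young and 8.79, 9.57, 7.49 and 5.94 CPM in aged IgG2a libraries gave a log2 fold change of -0.14 ± 0.15 (adjusted p = 0.529).

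Of the 4 other mitotic kinases, Plk1, which acts at centrosomes, kinetochores and the midbody, had levels of 1.08 to 2.20 CPM in young and 1.06, 4.25, 3.02 and 2.76 CPM in aged IgG2a libraries. It passed only without replicate 1, at 1.29 ± 0.29 (adjusted p = 0.00437) against 1.02 ± 0.39 (adjusted p = 0.0926) with it. Aurora A (Aurka), which matures the centrosome, was at 2.37, 5.23, 2.32 and 2.35 CPM in aged IgG2a libraries, 3 of which lay within the young range of 1.59 to 3.03 CPM. Pbk, a kinase active in mitotic cells, had a log2 fold change of 0.01 ± 0.38.

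The spindle checkpoint and anaphase genes and the chromosomal passenger complex held 2 of the 3 genes called with all libraries. Ube2c, the ubiquitin-conjugating enzyme of the anaphase-promoting complex, was at 1.45, 2.14, 0.833, 1.48 and 1.34 CPM in young and 1.70, 4.99, 3.29 and 3.32 CPM in aged IgG2a libraries, a log2 fold change of 1.26 ± 0.35 (adjusted p = 0.0368). Incenp, the scaffold that carries Aurora B to centromeres and the midzone, was at 7.96, 13.6, 9.52, 7.52 and 8.36 CPM in young and 10.8, 23.8, 20.5 and 19.2 CPM in aged IgG2a libraries, a log2 fold change of 1.05 ± 0.25 (adjusted p = 0.0258). In both cases replicate 1 fell inside the young range and the other 3 libraries above it. Bub1b, the checkpoint protein BUBR1, was at 3.61 to 8.85 CPM in young and 4.02, 13.9, 10.3 and 13.3 CPM in aged IgG2a libraries, and passed only without replicate 1 (1.14 ± 0.25, adjusted p = 0.00368). All 4 passenger complex genes passed without replicate 1, with log2 fold changes of 0.99 to 1.31, in a fit that called 22.1% of all genes higher. Cdc20, the activator of the anaphase-promoting complex, passed in neither fit (0.34 ± 0.35 and 0.54 ± 0.31).

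The kinetochore genes contained both the steepest rise and the single fall that was called. Ndc80, the microtubule-binding subunit for which the NDC80 complex is named, was at 1.58, 1.80, 0.952, 1.21 and 2.13 CPM in young and 1.99, 5.72, 3.45 and 4.42 CPM in aged IgG2a libraries (1.41 ± 0.34, adjusted p = 0.0254). Spc25, a subunit of the same complex, was at 8.87, 10.4, 8.73, 11.1 and 9.44 CPM in young and 8.47, 5.44, 4.42 and 5.74 CPM in aged IgG2a libraries (-0.62 ± 0.18, adjusted p = 0.0418). The 2 groups did not overlap for Spc25, which was the 1 gene of the 46 for which this held with all libraries, beside 9.74% of all genes with aged IgG2a below and 4.75% above. Its partner Spc24 had only 12 to 51 reads a library and a log2 fold change of 0.35 ± 0.43. The histone variant that marks centromeres, Cenpa, gave 0.34 ± 0.29, and 0.57 ± 0.16 (adjusted p = 0.0116) without replicate 1.

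Genes of the spindle, the cytokinetic midzone and condensin did not pass with all libraries, and without replicate 1 the calls were 2 of 6 kinesins, 2 of 3 spindle assembly factors, 2 of 3 midzone genes and 4 of 5 condensin genes, in a fit that called 22.1% of all genes higher. Kif11, the kinesin that pushes spindle poles apart, was at 2.78 to 6.41 CPM in young and 2.55, 10.9, 6.57 and 6.43 CPM in aged IgG2a libraries, and passed in neither fit (adjusted p = 0.0507 without replicate 1). Tpx2, which activates Aurora A on spindle microtubules, gave 0.86 ± 0.25 (adjusted p = 0.0183) without replicate 1. Prc1, which bundles midzone microtubules, gave 0.98 ± 0.20 (adjusted p = 0.00246), and Racgap1, its partner in the central spindle, 0.94 ± 0.19 (adjusted p = 0.00258). Among the condensin genes called was Smc4, with 30.9, 34.8, 26.1, 28.0 and 34.2 CPM in young and 20.8, 45.8, 42.2 and 41.3 CPM in aged IgG2a libraries. For Smc4, replicate 1 fell below the young range and the other 3 above it, and the log2 fold change was 0.36 ± 0.22 with and 0.54 ± 0.11 without it.

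Mki67 encodes the Ki-67 protein that coats mitotic chromosomes and is used as a proliferation marker. It was measured at 18.4, 32.3, 15.3, 18.4 and 23.7 CPM in young and 12.3, 62.0, 41.0 and 35.3 CPM in aged IgG2a libraries. Its log2 fold change was 0.87 ± 0.39 (adjusted p = 0.14), and 1.15 ± 0.26 (adjusted p = 0.00715) without replicate 1. Top2a, the topoisomerase that untangles sister chromatids, was at 16.9, 24.5, 10.9, 12.0 and 14.0 CPM in young and 7.68, 32.8, 18.4 and 20.3 CPM in aged IgG2a libraries. The groups overlapped for Top2a with and without replicate 1, and it passed in neither fit (0.41 ± 0.38 and 0.66 ± 0.29). Without replicate 1, ranges did not overlap for 18 of the 46 genes with aged IgG2a above young, beside 19.4% of all genes, and for Spc25 below, beside 27.4%.

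**Figure D2:**
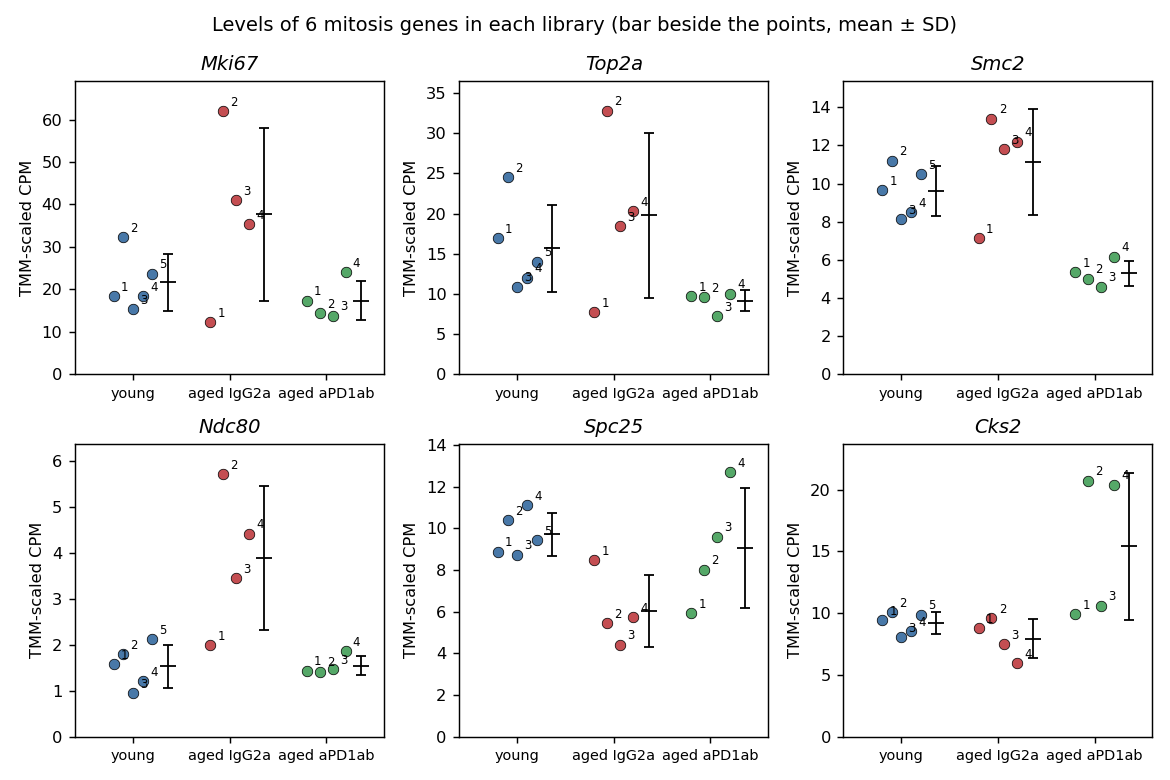
TMM-scaled CPM of 6 mitosis genes in each library (points, numbered by replicate) for young (n = 5), aged IgG2a (n = 4) and aged aPD1ab (n = 4) groups, with the mean ± SD as a bar beside the points. Aged IgG2a replicate 1 lies apart from replicates 2 to 4 for Mki67, Top2a, Smc2 and Ndc80, and for Spc25 and Cks2 the aged IgG2a libraries are not raised.

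The second comparison asked how the genes differed after PD-1 blockade in mice of the same age. With all libraries, 43 of the 46 genes had a log2 fold change below 0 (aged aPD1ab over aged IgG2a), with a median of -0.98, beside -0.01 over all 15530 genes tested. None was called at an adjusted p under 0.05 by edgeR, as was the case for every gene tested (0.0%, in each direction). At an unadjusted p under 0.05, 26 of the 46 were lower, beside 12.2% of all genes. DESeq2 called 13 lower (6.33% of all genes), a single fit of all 3 groups called 14 lower (6.14%), and voom with sample quality weights called 31 lower (18.8%). Without aged IgG2a replicate 1, edgeR called 32 of the 46 lower, beside 13.2% of all genes, and none higher, beside 17.1%, with a median of -1.23. Leaving out any other library of either group left 0 calls, among the 46 and among all genes tested alike. Medians of the 46 were then -1.12 to -0.75. Ranges did not overlap, with aged aPD1ab below, for Ndc80, Ect2 and Smc2 with all libraries, beside 4.73% of all genes, and with aged aPD1ab above for Cks2, beside 7.25%. Without replicate 1 this held for 36 of 46, beside 18.5% of all genes, and Cks2 and Spc25 lay above, beside 24.8%.

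Values for the aged aPD1ab libraries follow by role, with the aged IgG2a values given earlier or beside them. Cdk1 was at 3.16, 2.89, 2.72 and 2.92 CPM, above aged IgG2a replicate 1 and below replicates 2 to 4. The log2 fold change was -0.78 ± 0.41 (adjusted p = 0.242), and -1.07 ± 0.27 (adjusted p = 0.0205) without replicate 1. Ccnb1 was at 0.961, 1.14, 0.908 and 1.12 CPM, a narrow range that again sat between replicate 1 and the others (-1.36 ± 0.54, and -1.68 ± 0.39 without replicate 1, adjusted p = 0.0164). Ccnb2 passed in neither fit (-0.51 ± 0.44 and -0.75 ± 0.39). Cks2 went the other way, at 9.93, 20.7, 10.6 and 20.4 CPM, all above the 5.94 to 9.57 CPM of the aged IgG2a libraries. Replicates 1 and 3 were close to the aged IgG2a range and replicates 2 and 4 well above it, and its log2 fold change of 0.95 ± 0.30 (adjusted p = 0.115) did not pass.

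Plk1 at 1.20, 2.12, 1.99 and 1.52 CPM gave -0.72 ± 0.43, and -1.0 ± 0.31 (adjusted p = 0.0394) without replicate 1. Of the mitotic kinases it was the 1 gene of 4 to pass there, in a fit that called 13.2% of all genes lower. Bub1b at 4.08, 3.91, 4.54 and 5.03 CPM had one of the smallest p-values of the 46 genes (-1.26 ± 0.36, adjusted p = 0.109, and -1.54 ± 0.18, adjusted p = 0.0064, without replicate 1). The chromosomal passenger genes were called lower in all 4 cases without replicate 1, beside the same 13.2%. Incenp, at 13.7, 8.43, 13 and 12.3 CPM, had the mildest difference of the 4 at -0.86 ± 0.18, and Aurkb, the Aurora B kinase, the widest at -1.38 ± 0.26.

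At the kinetochore Ndc80 was at 1.44, 1.42, 1.47 and 1.86 CPM, below every aged IgG2a library (-1.34 ± 0.35, adjusted p = 0.109, and -1.57 ± 0.26, adjusted p = 0.00777, without replicate 1). Spc25 was at 5.92, 8.02, 9.59 and 12.7 CPM, which overlapped the aged IgG2a range through replicate 1 (0.58 ± 0.28, and 0.78 ± 0.27, adjusted p = 0.0615, without it). The NDC80 complex thus held a subunit with lower and a subunit with higher fitted values in the same libraries. Cenpa at 8.25, 2.69, 7.20 and 11.8 CPM varied widely between libraries and passed in neither fit.

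Kinesins had the lowest median of the roles, with 5 of 6 called lower without replicate 1, beside 13.2% of all genes. Kif11 at 2.84, 2.89, 1.42 and 3.20 CPM gave -1.36 ± 0.44, and -1.64 ± 0.33 (adjusted p = 0.0111) without replicate 1. Kif23, the kinesin of the central spindle, at 6.36, 5.17, 6.30 and 6.35 CPM, gave -1.02 ± 0.19 (adjusted p = 0.00874) in the same fit. Nusap1, a microtubule-bundling factor, was at 1.70, 6.67, 4.74 and 6.91 CPM in aged IgG2a and 1.40, 2.48, 1.70 and 2.59 CPM in aged aPD1ab libraries. It gave -1.59 ± 0.29 (adjusted p = 0.00904) without replicate 1. Ect2, the RhoA exchange factor that starts furrowing, was at 2.02, 4.42, 2.96 and 3.39 CPM in aged IgG2a and 1.52, 1.67, 1.82 and 1.80 CPM in aged aPD1ab libraries. Every aged aPD1ab library was thus below every aged IgG2a library, with a log2 fold change of -0.92 ± 0.29 (adjusted p = 0.115).

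In condensin, 4 of 5 genes were called lower without replicate 1, beside 13.2% of all genes. Smc2, the partner of SMC4 in the condensin ring, was at 7.12, 13.4, 11.8 and 12.2 CPM in aged IgG2a and 5.36, 5.01, 4.59 and 6.16 CPM in aged aPD1ab libraries. All 4 aged aPD1ab values lay below aged IgG2a replicate 1, and the log2 fold change was -1.09 ± 0.23 (adjusted p = 0.109), or -1.26 ± 0.16 (adjusted p = 0.0064) without it. Smc4 was at 17.9, 18.2, 21.8 and 24.9 CPM, which overlapped replicate 1 (-0.88 ± 0.25, and -1.08 ± 0.14 without it). Ncapd2, a condensin regulatory subunit, was at 10.7, 30.4, 17.9 and 21.6 CPM in aged IgG2a and 10.5, 10.9, 11.3 and 13.5 CPM in aged aPD1ab libraries, and gave -1.04 ± 0.20 (adjusted p = 0.00972) without replicate 1. Mki67 at 17.3, 14.3, 13.8 and 24.0 CPM and Top2a at 9.73, 9.57, 7.20 and 10.0 CPM lay above replicate 1, apart from the third library of Top2a, and below replicates 2 to 4. Without replicate 1 their log2 fold changes were -1.44 ± 0.25 (adjusted p = 0.00858) and -1.41 ± 0.23 (adjusted p = 0.00777).

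**Figure D3:**
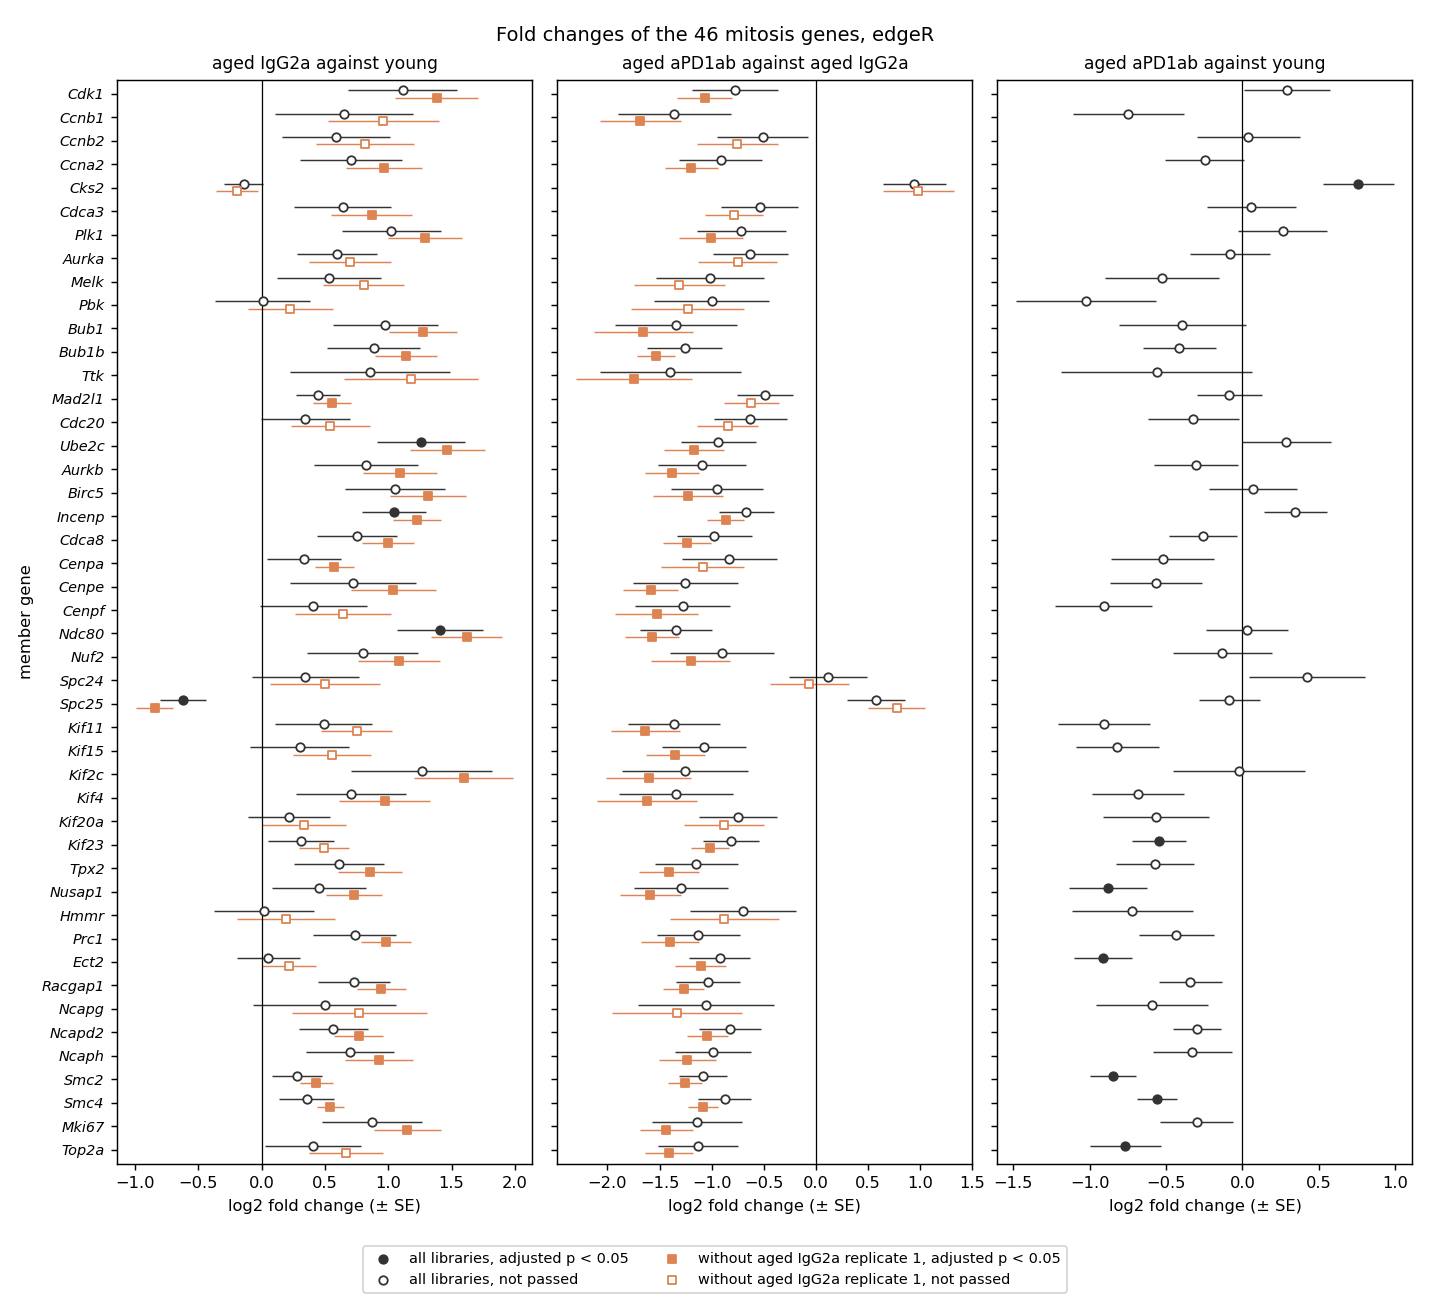
Log2 fold change ± SE (edgeR) of each of the 46 mitosis genes in 3 comparisons, with all libraries (circles) and without aged IgG2a replicate 1 (squares), filled where the adjusted p was under 0.05. With all libraries 3 genes are filled above and 1 below 0 in the first panel, none in the second, and 1 above and 6 below 0 in the third, while without replicate 1 there are 27 above and 1 below in the first panel and 32 below in the second.

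Markers of other cells differed between the same libraries. The proximal tubule sum was 4902 CPM in aged IgG2a replicate 1, 940 to 1445 CPM in replicates 2 to 4 and 4864 to 14503 CPM in aged aPD1ab libraries. The macrophage sum was 4271, 2319, 5255 and 3655 CPM in aged aPD1ab libraries, above the 3074 CPM of replicate 1 in 3 of 4 and below replicates 2 to 4 in all. None of the 10 markers of either list was at 0 in any library. Of the macrophage markers, 10 of 10 were lower in aged aPD1ab without replicate 1, and of the proximal tubule markers 10 of 10 were higher. Markers of the erythroid lineage, which included the globin gene Hbb-bs, summed to 23.7 to 117 CPM in young libraries. The sums were 85.5 to 155 CPM in aged IgG2a and 57.5 to 93.2 CPM in aged aPD1ab libraries. Aged IgG2a replicate 1 was at 155 CPM and replicate 4 at 151 CPM. This sum does not measure dividing precursors alone. The part of these cells in the mitosis gene result was not tested.

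**Figure D4:**
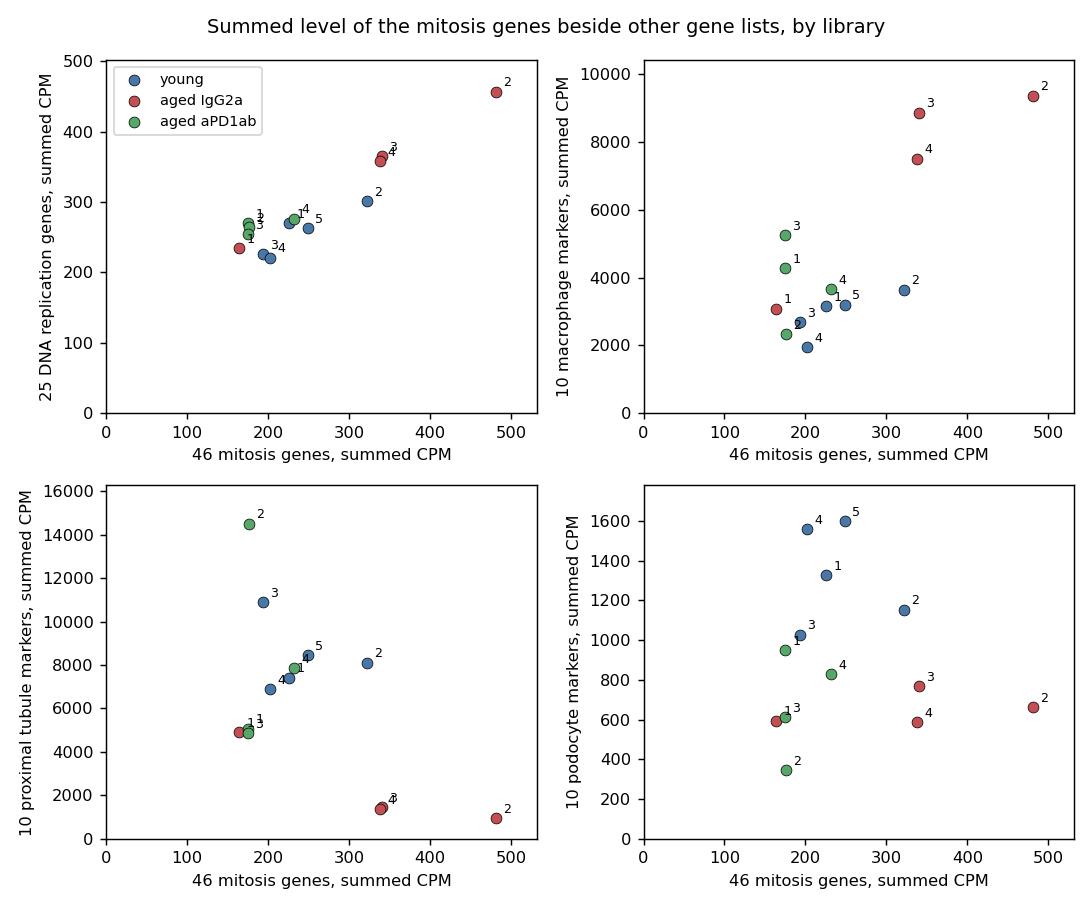
Summed CPM of the 46 mitosis genes (horizontal axis) against the summed CPM of 25 DNA replication genes and of macrophage, proximal tubule and podocyte markers (vertical axes), 1 point per library, coloured by group and numbered by replicate. Aged IgG2a replicates 2 to 4 lie furthest right, at 338 to 481 CPM, with the highest macrophage sums and the lowest proximal tubule sums. Young replicate 2 lies close to them on the horizontal axis, at 322 CPM, and aged IgG2a replicate 1 lies at 164 CPM.

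The third comparison set aged mice given aPD1ab against young mice and did not involve the aged IgG2a libraries. It shares the aged aPD1ab libraries with the second comparison and the young libraries with the first. Here 36 of the 46 genes had a log2 fold change below 0 (aged aPD1ab over young), with a median of -0.37 beside 0.02 over all 15986 genes tested. In this comparison 6 genes were called lower, beside 9.97% of all genes, and Cks2 was called higher, beside 12.4%. Leaving out 1 library at a time gave 3 to 8 calls lower, beside 1024 to 1746 of all genes. It gave 0 or 1 higher, beside 1293 to 2122. Ranges did not overlap for the same 6 genes, with aged aPD1ab below, beside 10.6% of all genes, and for none above, beside 11.3%.

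The 6 genes called lower were spread over 5 roles. Smc2, at 9.66, 11.2, 8.14, 8.49 and 10.5 CPM in young and 4.59 to 6.16 CPM in aged aPD1ab libraries, had the smallest p (-0.84 ± 0.15, adjusted p = 0.00589). Ect2, at 2.69, 3.97, 3.41, 3.05 and 2.99 CPM in young and 1.52 to 1.82 CPM in aged aPD1ab libraries, followed (-0.91 ± 0.19, adjusted p = 0.00984). The next was Smc4 (-0.56 ± 0.13, adjusted p = 0.0148), whose young libraries held 26.1 CPM or more and whose aged aPD1ab libraries held 24.9 CPM or less. Nusap1 fell from 3.10 to 5.31 CPM in young to 1.40 to 2.59 CPM in aged aPD1ab libraries (-0.88 ± 0.26, adjusted p = 0.0322). Top2a gave -0.76 ± 0.23 (adjusted p = 0.04) and Kif23 -0.55 ± 0.18 (adjusted p = 0.0491), both close to the threshold. Both condensin ATPase genes were among the 6 called lower in aged aPD1ab against young, while Ncapd2 gave -0.30 ± 0.15 and did not pass. The same fit called 9.97% of all genes lower. Whether the mitosis genes, or the condensin genes among them, were called lower more often than that was not tested.

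In the cell cycle engine, Cdk1 gave 0.29 ± 0.28, Ccnb1 -0.75 ± 0.36 and Ccnb2 0.04 ± 0.34, and none of the 3 passed. Plk1 (0.26 ± 0.29), Incenp (0.35 ± 0.21) and Ndc80 (0.03 ± 0.27) did not pass either, and Mki67 gave -0.30 ± 0.24 (adjusted p = 0.388). Cks2 was the 1 gene called higher (0.76 ± 0.23, adjusted p = 0.0386). Its young levels were 9.45, 10.1, 8.06, 8.52 and 9.89 CPM, so the aged aPD1ab libraries at 9.93 and 10.6 CPM were within or just above the young range and the 2 at 20.7 and 20.4 CPM were above it. That call was lost without aged aPD1ab replicate 2 or 4 and without any single young library.

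Related gene lists placed the 46 genes in the cell cycle. Of 44 further mitosis genes, 42 were above 0 in aged IgG2a against young with a median of 0.57, and Ncapg2 (1.08 ± 0.33) and Cep55 (1.22 ± 0.33) were called higher, a smaller share than the 9.05% of all genes. Without replicate 1, 18 were called higher there, beside 22.1% of all genes, and 24 of the 41 tested were called lower in aged aPD1ab against aged IgG2a, beside 13.2%. DNA replication genes, which act in S phase, followed the same direction: 23 of 24 tested were above 0 in aged IgG2a against young, with Chaf1b (1.04 ± 0.24) the 1 gene called higher, again under the share of all genes. Without replicate 1, 18 were called higher, beside the same 22.1% of all genes. In aged aPD1ab against aged IgG2a without replicate 1, 13 were called lower (beside 13.2% of all genes) and Tyms higher (beside 17.1%). In aged aPD1ab against young, their median was 0.10, 1 was called higher (Cdt1, the licensing factor, 0.65 ± 0.20, beside 12.4% of all genes) and none lower.

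Transcriptional regulators of these genes were examined next. The 5 activators summed to 23.9 to 37.0 CPM in young, 20.8 to 48.2 in aged IgG2a and 24.9 to 30.9 in aged aPD1ab libraries, and none was called with all libraries. Without replicate 1, E2f1, E2f2 and E2f3 were called higher in aged IgG2a against young, beside 22.1% of all genes. In the same setting E2f1, E2f2 and Foxm1 were called lower in aged aPD1ab against aged IgG2a, beside 13.2%. Of 13 repressors, which include DREAM subunits, Lin37 (0.57 ± 0.17) and E2f4 (0.31 ± 0.09) were called higher in aged IgG2a against young, beside 9.05% of all genes. Without replicate 1 these 2, Rbl1 and E2f8 were called higher there (beside 22.1%) and E2f5 lower (beside 23.5%). In aged aPD1ab against aged IgG2a without replicate 1, E2f7, E2f8, Rb1 and Rbl1 were called lower (beside 13.2%) and E2f5 higher (beside 17.1%). The 3 pocket protein genes Rb1 (-0.57 ± 0.13), Rbl1 (-0.45 ± 0.12) and Rbl2 (-0.30 ± 0.09) were called lower in aged aPD1ab against young, beside 9.97% of all genes. Among 7 CDK inhibitors, Cdkn2c (0.66 ± 0.20) and Cdkn2d (0.44 ± 0.11) were called higher in aged IgG2a against young, beside 9.05% of all genes. Cdkn1c, which podocytes express, was called lower there (-1.36 ± 0.33), beside 8.38%. Cdkn2c (0.79 ± 0.22) and Cdkn2d (0.54 ± 0.13) were also called higher in aged aPD1ab against young, beside 12.4% of all genes.

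Machinery that resting cells also express is given last. The 14 anaphase-promoting complex genes summed to 513 to 532 CPM in young, 501 to 544 in aged IgG2a and 531 to 602 in aged aPD1ab libraries. Their median log2 fold change was 0.10 in the first, -0.01 in the second and 0.12 in the third comparison. With all libraries Anapc11 was called higher in the first (beside 9.05% of all genes). In the third, Anapc5, Anapc11 and Anapc13 were called higher (beside 12.4%) and Anapc1 lower (beside 9.97%). Without replicate 1, Fzr1, Anapc11 and Cdc26 were called higher (beside 22.1%) and Anapc13 lower (beside 23.5%) in the first. In the second, Anapc13 was then called higher (beside 17.1%) and Anapc1 lower (beside 13.2%). G1 cyclins and their kinases summed to 378 to 403, 338 to 417 and 360 to 386 CPM in the same order. Cohesin, the ring that holds sister chromatids together, had 6 of 9 genes called lower and none higher in the third comparison, beside 9.97% of all genes called lower. Among these were Nipbl (-0.65 ± 0.14), the cohesin loader, and Stag2 (-0.64 ± 0.11), a ring subunit. In aged aPD1ab against aged IgG2a all 9 were below 0 and none was called with all libraries. Without replicate 1, Nipbl, Stag1 and Stag2 were called lower there, beside 13.2% of all genes. In aged IgG2a against young no cohesin gene was called in either fit.

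Among the 46 genes, 10 share exon bases with a gene on the opposite strand, over 2.8% to 29.3% of their exon length, and the strand setting of the counting was not given in the sources used here. Among the genes named, Ube2c shares 22.8% of its exon length with Tnnc2, which drew 2 reads in all 13 libraries together. Prc1 shares 11.1% with Rccd1 (1699 reads against 1507 for Prc1), and for it reads of the 2 genes cannot be told apart. Cdc20 shares 2.8% with Elovl1, which drew 18754 reads against 1022 for Cdc20, and these too cannot be told apart. Plk1 shares 7.1% with a gene model not analysed here, and Nusap1 4.2% with Oip5 (130 reads against 1165). In the genome (GRCm38, GENCODE M21) the 46 genes were spread over the chromosomes, with Mki67 on the minus strand of chromosome 7, Top2a on that of chromosome 11, Smc2 on the plus strand of chromosome 4, Spc25 on the minus strand of chromosome 2 and Cks2 on the plus strand of chromosome 13.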

How the data were processed

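RNA of nephrin-sorted cells was sequenced by the authors, aligned to mm10 (GRCm38) with HISAT2 and summarised per gene with featureCounts, as named in the submitters' processing notes. Versions, strand setting and treatment of reads that map to several places were not given in the sources used here. The deposited values are raw counts per Ensembl gene, in 1 table. Of its 15 columns, 13 were assigned to a group by the number in their header. That number is printed beside a point of the group in the podocyte panel of the study's principal component plot. No column was tied to a single sample label, and 2 columns were not used. Of 46078 gene identifiers, 45143 had a symbol in GENCODE M21. Counts were tested pairwise with edgeR 4.0.16 (R 4.3.3; filterByExpr, TMM, robust quasi-likelihood fit, Benjamini-Hochberg adjustment over all genes tested; called at an adjusted p under 0.05). CPM were scaled by TMM over the 13 libraries. TPM used exon union lengths. DESeq2 1.42.0, limma 3.58.1 (voom), other scalings, no filter, 1 fit of 3 groups and leaving out each library were alternatives. On simulated counts the edgeR fits were tested before use. Values were given for the 2 most abundant genes of each role by TPM, for Mki67, Top2a, Cdk1, Ccnb1, Ccnb2 and Plk1, for the 3 smallest p-values of each comparison, and for genes that passed against the majority's direction; others are named by count or as examples. The members, lists and rules were chosen with earlier results of these data known. Library totals of 19912969 to 32717100 counts limit precision for genes with few reads. SEs of the edgeR fits were derived from the test, as the absolute log2 fold change divided by the square root of the F statistic. They cover the spread between libraries, as estimated with information shared across genes.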

Additional observations from a re-analysis of the deposited data

Results flagged for a closer look

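For 27 genes and the sum of the 46, each group was examined for a library far from the rest of its group (84 groups, 5 flagged, and chance flags about 1 in 20). Aurka in aged IgG2a replicate 2 was at 5.23 CPM, against 2.32 to 2.37 CPM in the other 3 libraries. In the aged aPD1ab group, replicate 4 was the highest for Ndc80, at 1.86 CPM against 1.42 to 1.47 CPM, and for the sum of the 46 genes, at 232 CPM against 175 to 176 CPM. Kif23 was lowest in replicate 2, at 5.17 CPM against 6.30 to 6.36 CPM, and Top2a in replicate 3, at 7.20 CPM against 9.57 to 10.0 CPM. Aged IgG2a replicate 1 was not flagged for any of these.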

How the results depend on the processing

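No paired analysis was possible because the columns carry no replicate numbers shared between groups. Alternatives that leave out the first aged IgG2a library under another tool, both its extreme libraries (replicates 1 and 2), or the scaling factors were chosen after seeing the data. In aged IgG2a against young, 3 genes were called higher and 1 lower. Higher calls numbered 26 with voom (24.3% of all genes) and 16 without replicates 1 and 2 (17.3%). Without replicate 1 they numbered 31 with DESeq2 (23.9%) and 31 with voom (22.6%). With library totals only there were 0, beside 331 of 15953 genes. Leave-one-out gave 0 to 27, beside 260 to 3584 of all genes. The lower call became 0 in 1 fit of 3 groups, with no filter and with a 2-fold minimum. Those settings called 1243, 1065 and 732 of all genes lower, in that order. Leave-one-out gave 0 to 1, beside 293 to 3813 of all genes. In aged aPD1ab against aged IgG2a, with 0 calls, lower calls numbered 14 in 1 fit of 3 groups (6.14%), 13 with DESeq2 (6.33%) and 31 with voom (18.8%). Without replicate 1 they numbered 36 with DESeq2 (17.7%) and 32 with voom (18.8%), and without replicates 1 and 2 they numbered 15 (4.46%). Leave-one-out gave 0 to 32, beside 0 to 2086 of all genes. Higher calls there numbered 1 in 1 fit of 3 groups (11.4%), 1 with DESeq2 (8.95%) and 2 with voom (20.9%), and 2 with each without replicate 1 (20.2% and 20.6%). In aged aPD1ab against young, with 6 lower and 1 higher, 2 were lower in 1 fit of 3 groups (1411 of 16330 genes). With a 2-fold minimum 0 were lower (430 of 15986 genes) and 0 higher (336). Library totals only also gave 0 higher (856 of 15986). Leave-one-out gave 3 to 8 lower (beside 1024 to 1746 of all genes) and 0 to 1 higher (beside 1293 to 2122). The cause of these changes was not tested.

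No direction turned among the 27 named genes in aged aPD1ab against aged IgG2a under 18 alternatives. In aged IgG2a against young, library totals only turned Pbk (-0.45), Cdc20 (-0.12), Cenpa (-0.15), Kif23 (-0.15), Nusap1 (-0.05), Ect2 (-0.40), Smc2 (-0.18), Smc4 (-0.12) and Top2a (-0.07), none of them called. Pbk also turned with DESeq2 size factors (-0.0042), DESeq2 (-0.0038), 1 fit of 3 groups (-0.06), no filter (-0.04) and without replicates 1 and 2 (-0.01), and Ect2 in 1 fit of 3 groups (-0.02). Leave-one-out ranges crossed 0 for Ccnb1 (-0.02 to 0.98), Pbk (-0.28 to 0.26) and Ect2 (-0.16 to 0.21). In aged aPD1ab against young, library totals turned Ccnb2 (-0.08) and Ndc80 (-0.09), voom turned Spc25 (0.06), and leave-one-out crossed 0 for Ccnb2 (-0.13 to 0.33), Aurka (-0.21 to 0.07), Ndc80 (-0.10 to 0.17) and Spc25 (-0.30 to 0.07).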
